A study of Drosophila melanogaster with 8 samples.

Results

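The families described here were 7 jockey-clade non-LTR retrotransposons of Drosophila melanogaster: Doc, Doc2, Doc3, Doc4, jockey, BS and Helena. They were taken by name, as the rows for Doc, BS, Helena and jockey plus every name starting with Doc, out of 111 transposable element (TE) families listed in both tables. Juan, which belongs to the same clade, was not analysed here. RNA was measured by sequencing polyA-enriched RNA of whole ovaries, in 4 groups of 2 biological replicates. The knockdowns were driven by tj-GAL4, which is active in the follicle cells, the soma that surrounds the germline, and were timed by a thermosensitive GAL80. The no-KD and piwi-sKD groups had the same genotype: in a w background, tj-GAL4 on one chromosome and tubP-GAL80[ts] with sh-piwi, a hairpin against piwi, on another. No-KD flies stayed at 20°C, and piwi-sKD flies spent their last 5 days at 25°C, which lets GAL4 work and the hairpin be made. The double knockdowns carried 1 copy of tj-GAL4 and of the GAL80[ts] sh-piwi chromosome with a second hairpin, which in the control, piwi-sKD,ctrl-sKD, was sh-w, against the white gene, and in piwi-sKD,dcr2-sKD was sh-dcr2, against Dcr2. Both are labelled 25°C for 5 days.

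Non-LTR retrotransposons move by copying their RNA back into DNA directly at the new site, and they lack the long terminal repeats and the envelope gene of endogenous retroviruses (ERVs). A full-length jockey-clade element is transcribed from a promoter inside its own start and encodes an RNA-binding protein and a protein with endonuclease and reverse transcriptase domains. In the fly ovary, Piwi with its piRNAs silences TEs at transcription in follicle cells and in the germline, and Dcr2 makes the siRNAs that guide the cutting of TE transcripts.

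Values are normalised counts: the reads assigned to a family, divided by the size factor of the sample. The TE reads behind them ran from 78807 to 343458 per sample, with size factors of 0.927 to 1.13. Counts of 3 reads, the floor used here, correspond to 2.66 to 3.23 normalised counts, and all 7 families were at or above it in every sample. One table covers no-KD with piwi-sKD, the other covers the double knockdowns. Each was normalised on its own, so levels were tested within a table, and levels set across tables are descriptions. Only the changes within each table were compared between the tables, in a fit over all 8 samples. The tables hold TE families only, so the levels of piwi and Dcr2 and markers of follicle cells and germline were not analysed here. In whole ovaries, fewer cells of a type and less RNA per cell cannot be told apart. In the first comparison the temperature and the depletion of Piwi also cannot be told apart in these samples. The study shifted flies with a GAL80 that is not thermosensitive, and reports that none of a subset of TEs rose by RT-qPCR. Whether any of the 7 families was in that subset was not checked here.

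Doc had the highest and Helena the lowest level of the 7 families in every sample. Levels per kilobase, taken over the length of the longest annotated copy that overlaps no other TE, were compared between families. No-KD had 2849 normalised counts per kb for Doc, 227 for jockey, 114 for Doc3, 52.2 for Doc4, 34.0 for Doc2, 26.3 for BS and 7.96 for Helena. The order was the same in piwi-sKD, with Doc at 4543 and Helena at 14.0 normalised counts per kb. In the double knockdowns Doc, jockey and Doc3 again had the highest levels per kb. Normalised counts per kb were 729, 140 and 99.7 with the control hairpin (piwi-sKD,ctrl-sKD) and 1483, 173 and 89.2 with the Dcr2 hairpin (piwi-sKD,dcr2-sKD). Doc2 and Doc4 were neighbours in both: 41.6 and 39.2 normalised counts per kb with the control hairpin, and 54.1 and 56.9 with the Dcr2 hairpin, and their order turned by less than the spread of their replicates.

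**Figure D1:**
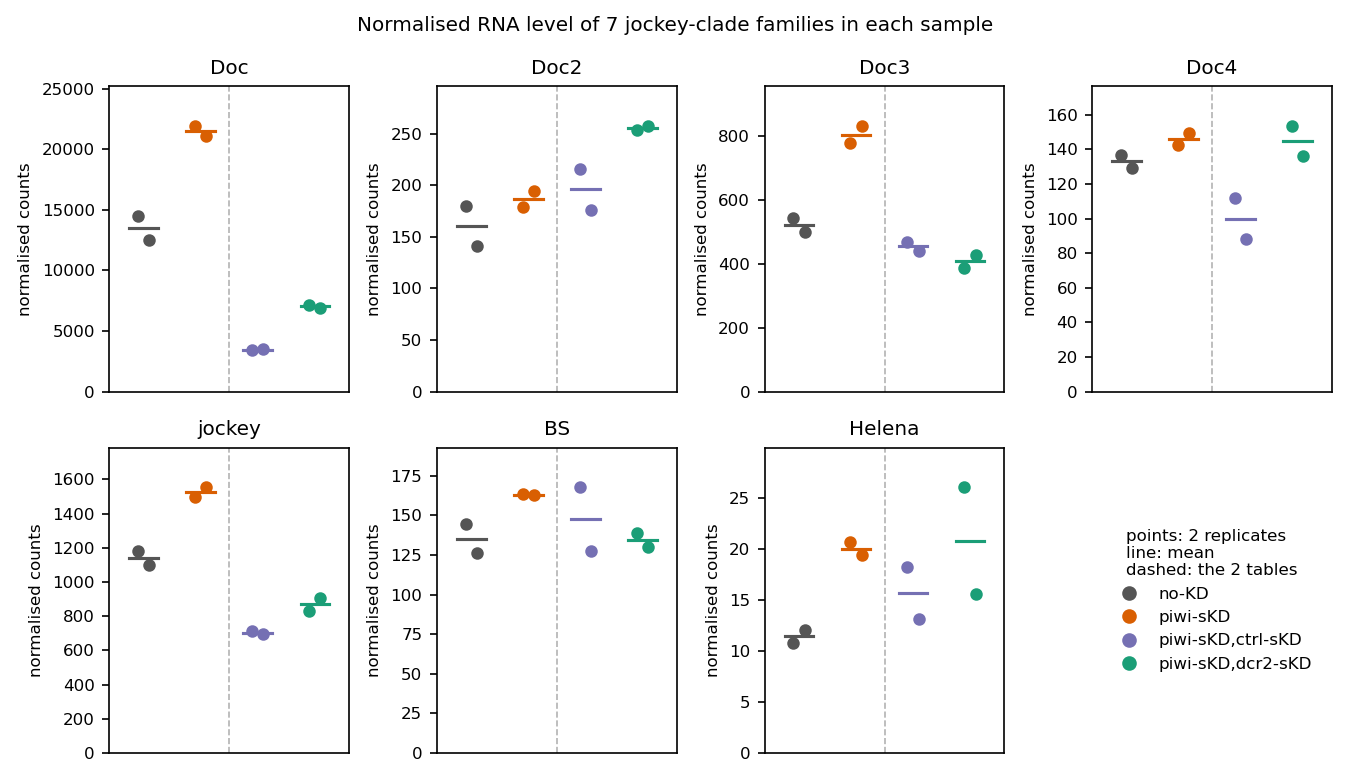
Normalised counts (linear axis from 0, one panel per family) of the 7 families in each sample, with 2 points per group for the replicates and a line for the mean; the dashed line separates the 2 tables, which were normalised separately. Doc lies between 12494 and 21939 in the first table and between 3432 and 7119 in the second, and both points with the Dcr2 hairpin lie above both points with the control hairpin.

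The first comparison asked how the families respond when Piwi is depleted in follicle cells. Doc, jockey, Doc3 and Helena rose in piwi-sKD, by 1.34-fold to 1.75-fold in the group means, and 0 of 7 were more than 2-fold higher, where 28.7% of all families were. With limma and Benjamini-Hochberg adjustment over 109 families, 4 of 7 passed the threshold of 0.05 as higher and 0 of 7 as lower. Over all families tested 55% passed as higher and 5.5% as lower, so the count of the 7 lay near the background. By sample values alone, 6 of 7 families had both piwi-sKD samples above both no-KD samples, as did 73.4% of all families, and 0 of 7 had both below, as did 11%.

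Doc, a family with many near full-length copies in the reference genome, took the most normalised counts of all 111 families in both no-KD samples, with no correction for length. The no-KD samples had 14475 and 12494 normalised counts of Doc, and the piwi-sKD samples 21939 and 21062. The groups did not overlap, and Doc was 1.59-fold higher. On the log2(value + 1) scale the change was 0.68 ± 0.12 (SE, n = 2 per group; limma, adjusted p = 0.00172). Its share of the summed TE signal was nevertheless lower, at 11.0% and 9.11% under piwi-sKD against 16.7% and 15.7% under no-KD.

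Jockey, the element that gives the clade its name, had 1182 and 1098 normalised counts under no-KD, and 1496 and 1554 under piwi-sKD. Both piwi-sKD samples were above both no-KD samples, by 1.34-fold in the means. The log2 change was 0.42 ± 0.10 (SE; limma, adjusted p = 0.00598). For Doc3 the no-KD values were 542 and 499 normalised counts, and the piwi-sKD values 776 and 831. These groups were also apart, by 1.54-fold, with a log2 change of 0.62 ± 0.11 (SE; limma, adjusted p = 0.00119).

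Helena had the fewest reads of the 7, with 10 and 12 for no-KD samples against 20 and 22 for piwi-sKD samples. These are 10.8 and 12.1 against 20.7 and 19.5 normalised counts. The groups did not overlap, and the ratio was 1.75. The exact 95% Poisson intervals of the reads, which cover counting error only, did overlap: the highest of no-KD was 6.20 to 21.0 reads and the lowest of piwi-sKD was 12.2 to 30.9 reads. The log2 change was 0.76 ± 0.28 (SE; limma, adjusted p = 0.043). Helena no longer passed with a pseudocount of 0.5 (limma, adjusted p = 0.0502), or without any of 3 of the 4 samples (adjusted p = 0.0562 to 0.0765).

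BS, Doc2 and Doc4 did not pass the test. BS had 144 and 126 normalised counts against 163 and 163, without overlap, and a log2 change of 0.27 ± 0.15 (SE; limma, adjusted p = 0.166). Doc4 had 137 and 129 normalised counts against 143 and 150, also without overlap, and a log2 change of 0.13 ± 0.15 (SE; limma, adjusted p = 0.45). Doc2 was the family of the 7 whose groups overlapped, with 180 and 141 normalised counts against 179 and 195, and its log2 change was 0.22 ± 0.17 (SE; limma, adjusted p = 0.275). It was 0.40 without no-KD replicate 1 and 0.051 without no-KD replicate 2.

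These calls rest on the deposited size factors, which come from genes and TEs together. The median log2 change of all families was 0.47, that of the 7 families 0.42, and that of the 27 other non-LTR families 0.39. Jockey, BS, Doc2 and Doc4 were thus below the median of all families, and Doc, Doc3 and Helena above it. When each sample was instead centred on the median level of DNA and non-LTR families, 0 of 7 were higher and 2 of 7 lower. Of all 109 families, 28 were then higher and 35 lower. Centring on all families, or making the TE sum equal, gave 0 of 7 higher and 6 of 7 lower. Of all 109 families, 22 were higher in both of these settings, and 71 and 78 were lower. Without no-KD replicate 2, the sample with the lower Doc level, 1 of 7 passed as higher, and Doc (limma, adjusted p = 0.0637) and jockey (adjusted p = 0.0663) did not pass.

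**Figure D2:**
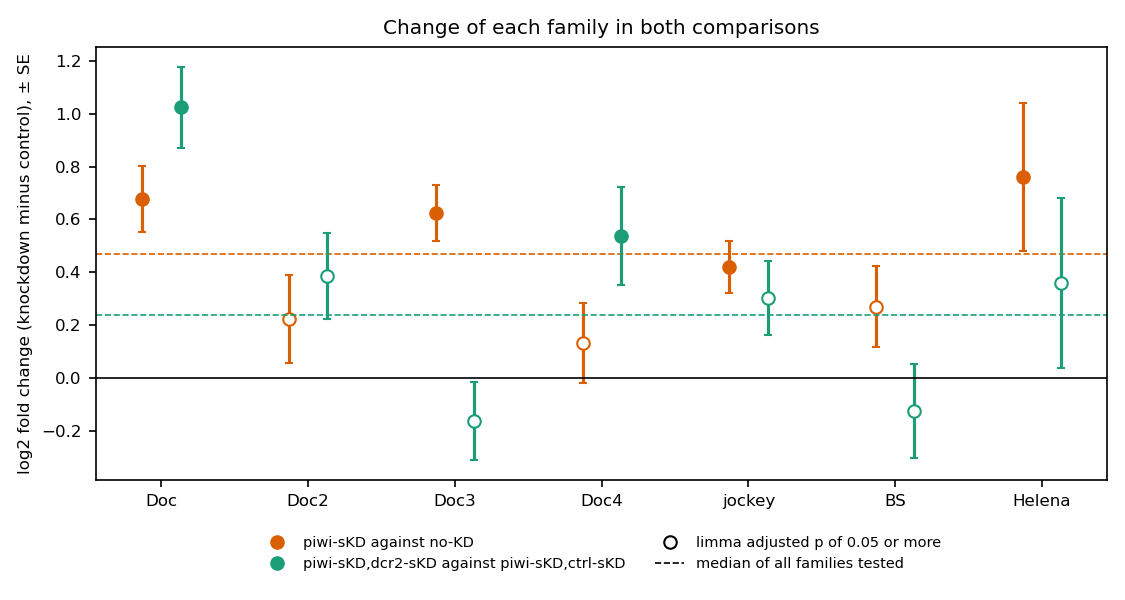
Log2 fold change (knockdown minus control, log2(value + 1) scale) with its SE for each family in both comparisons; filled points passed limma's adjusted p threshold of 0.05 and the dashed lines are the medians of all families tested (0.47 and 0.24). Doc is filled in both comparisons, at 0.68 and 1.02, and Doc3 is filled at 0.62 in the first and open at -0.16 in the second.

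The second comparison asked what is added when Dcr2 is depleted in follicle cells that are also depleted of Piwi. Its groups carry different second hairpins. Depletion of Dcr2 cannot be told apart here from any other genetic difference that came with the hairpin. Doc rose by 2.03-fold and Doc4 by 1.45-fold, while Doc3 and BS had lower means and did not pass the test. With limma and Benjamini-Hochberg adjustment over 110 families, 2 of 7 passed as higher, where 27.3% of all families did, and 0 of 7 as lower, where 3.64% did. Doc was the 1 of 7 more than 2-fold higher, where 11.9% of all families were. The groups were apart with piwi-sKD,dcr2-sKD higher for Doc, Doc2, Doc4 and jockey, 4 of 7 against 54.5% of all families, and with it lower for Doc3, 1 of 7 against 11.8%.

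Doc had 3432 and 3472 normalised counts with the control hairpin and 7119 and 6921 with the Dcr2 hairpin. The replicates of a group differed far less than the groups did. The log2 change was 1.02 ± 0.15 (SE, n = 2 per group; limma, adjusted p = 1.53e-09), the largest of the 35 non-LTR families and the 12th place among all families. Because the prior degrees of freedom of this fit were infinite, the p-values use a spread that families of like level share, not the pair of replicates of Doc. The 4 differences between a piwi-sKD,dcr2-sKD and a piwi-sKD,ctrl-sKD sample ran from 0.99 to 1.05 on the log2 scale. Doc passed as higher under all 14 alternatives tried, with log2 changes of 0.30 to 1.04, the lowest of them when the TE sums were equalised (limma, adjusted p = 0.0401).

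Doc4 had 112 and 88.2 normalised counts with the control hairpin against 154 and 136 with the Dcr2 hairpin. The groups were apart, and the log2 change was 0.54 ± 0.18 (SE; limma, adjusted p = 0.0139). Doc4 did not pass when any 1 of the 4 samples was left out, with limma adjusted p-values of 0.0636 to 0.30. Doc2 had 216 and 176 normalised counts against 253 and 258, which did not overlap, and a log2 change of 0.39 ± 0.16 (SE; limma, adjusted p = 0.0516). Jockey had 712 and 694 normalised counts against 833 and 905, also apart, and a log2 change of 0.30 ± 0.14 (SE; limma, adjusted p = 0.0762). Doc2 and jockey did pass with limma's precision weights, taken from the trend of spread with read count (adjusted p = 0.0365 and 0.0384). This made 4 of 7. Of all 110 families, 37 were then higher.

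Doc3, which was 1.54-fold higher in piwi-sKD, had 468 and 441 normalised counts here with the control hairpin and 385 and 428 with the Dcr2 hairpin. Both samples with the Dcr2 hairpin were lower, by little, and the log2 change was -0.16 ± 0.15 (SE; limma, adjusted p = 0.432). BS had 168 and 128 normalised counts against 139 and 129.9, which overlapped, with a log2 change of -0.12 ± 0.18 (SE; limma, adjusted p = 0.641). Helena had 18.3 and 13.1 normalised counts against 26.1 and 15.6, from 14 to 28 reads, and overlapped as well, with a log2 change of 0.36 ± 0.32 (SE; limma, adjusted p = 0.422). That change was 0.0072 without piwi-sKD,dcr2-sKD replicate 1 and 0.71 without replicate 2 of that group. At this depth its error was too wide to tell this change from 0 or from that in piwi-sKD.

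The median log2 change of all families in this comparison was 0.24 and that of the 7 families 0.36, against 0.22 for the 28 other non-LTR families. After centring on all families, or on DNA and non-LTR families, Doc alone passed as higher, and Doc3 and BS passed as lower. With the TE sum made equal, 1 of 7 passed as higher and 3 of 7 as lower.

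**Figure D3:**
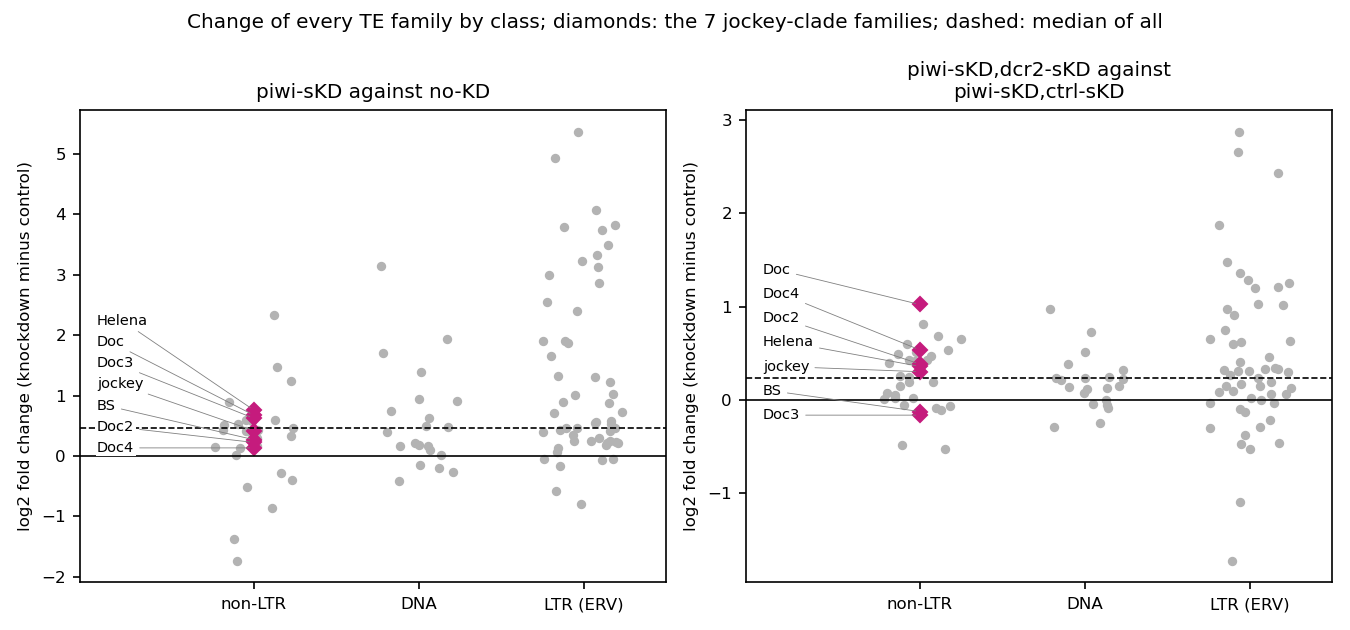
Log2 fold change (knockdown minus control) of every TE family by class in both comparisons, with the 7 jockey-clade families as named diamonds, other families as grey points and the dashed line at the median of all families. In the first comparison the diamonds lie between 0.13 and 0.76, and in the second between -0.16 and 1.02, with Doc at the top of the non-LTR class.

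How the other 6 families changed relative to Doc was described by scaling each sample to its own Doc level, which makes the result free of the size factors. Doc was made the reference after the data were seen. In the second comparison it had the largest change of the 35 non-LTR families, so lower values of the others partly follow from that choice. The tests of a comparison also share the same 4 Doc values, so their p-values are descriptions. In the second comparison 5 of 6 families fell relative to Doc, where 76.1% of all families did. The changes relative to Doc were -1.18 ± 0.15 on the log2 scale for Doc3 (SE; limma, adjusted p = 4.93e-12) and -1.14 ± 0.18 for BS (adjusted p = 1.6e-08). They were -0.72 ± 0.15 for jockey (limma, adjusted p = 4.78e-06), -0.63 ± 0.17 for Doc2 (adjusted p = 0.000339) and -0.48 ± 0.19 for Doc4 (adjusted p = 0.0166). With 2 samples per group, these p-values also rest on a spread that families of like level share, not on the replicates of each family. Helena, at -0.61 ± 0.33, did not pass (limma, adjusted p = 0.0772), but did without a mean-variance trend (adjusted p = 0.00764) and without piwi-sKD,dcr2-sKD replicate 1 (adjusted p = 0.0439). Its value ran from -0.28 to -0.94 with 1 sample left out. The calls of Doc3, BS and jockey held with each sample left out, with a replicate block and without a mean-variance trend. Doc2 was lost without piwi-sKD,ctrl-sKD replicate 1 (limma, adjusted p = 0.0538), and Doc4 without any of 3 of the 4 samples (adjusted p = 0.0766 to 0.224).

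In the first comparison 3 of 6 families fell relative to Doc, against 32.4% of all families. These were Doc4 at -0.54 ± 0.14 (SE; limma, adjusted p = 0.016), Doc2 at -0.45 ± 0.14 (adjusted p = 0.0281) and BS at -0.40 ± 0.13 (adjusted p = 0.0341). None of these 3 passed when any 1 of the 4 samples was left out. Doc3 did not differ from Doc beyond its error, at -0.051 ± 0.11 (limma, adjusted p = 0.683), as did Helena, at 0.13 ± 0.28 (adjusted p = 0.694). Jockey was at -0.26 ± 0.11 (limma, adjusted p = 0.0801).

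The ratio of Doc to another family within a library can be set across the tables, since it does not depend on the size factors. Doc had 12.2 and 11.4 times the reads of jockey under no-KD, and 14.7 and 13.6 times under piwi-sKD. With the double knockdowns it was 4.82 and 5.00 times for the control hairpin and 8.54 and 7.65 times for the Dcr2 hairpin, and the 4 groups did not overlap. The ratio to Doc3 was 25.0 to 28.3 in the first table, 7.33 and 7.87 with the control hairpin, and 18.5 and 16.2 with the Dcr2 hairpin, so that no-KD and piwi-sKD overlapped and the double knockdowns were lower. Groups of the 2 tables differ in genotype and copies of the driver, which cannot be told apart from the second hairpin. No-KD also had a lower temperature than the double knockdowns. The names of the double-knockdown libraries carry a higher number than their label in the place of the temperature. These ratios were not tested across the tables.

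Doc took 86.2% to 88.8% of the summed normalised counts of the 7 families in the first table, 66.9% and 69.3% with the control hairpin, and 79.9% and 78.7% with the Dcr2 hairpin. The 7 families summed to 15586 ± 1535 normalised counts (SD, n = 2 here and below) under no-KD and to 24345 ± 525 under piwi-sKD, 1.56 times as much. They summed to 5070 ± 79.8 with the control hairpin and to 8852 ± 82.1 with the Dcr2 hairpin, 1.75 times as much. Without Doc the ratios were 1.35 and 1.13, from 2101 ± 135 to 2844 ± 95.2 and from 1618 ± 108 to 1831 ± 57.9 normalised counts. A sum of 2 samples against 2 cannot reach an exact permutation p below 0.333, so none is given.

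**Figure D4:**
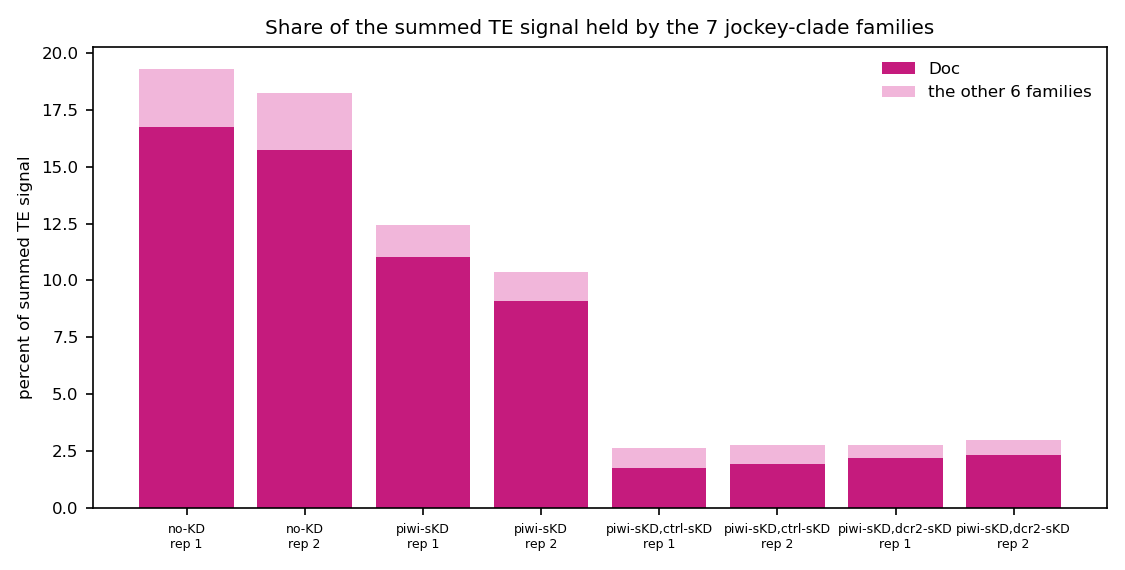
Percent of the summed TE signal (linear axis from 0) held by Doc and by the other 6 families in each of the 8 samples. The 7 families together held 19.3% and 18.2% under no-KD, 12.4% and 10.4% under piwi-sKD and 2.66% to 2.99% in the double knockdowns.

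Of the 7 families, Doc3 was the 1 whose change differed between the comparisons by a test of the difference. Its log2 change in the second comparison less that in the first was -0.79 ± 0.18 (SE; limma over all 8 samples, adjusted p = 0.00126), and 28.4% of all families likewise had the larger change in the first. The difference did not pass when TE sums were equalised (limma, adjusted p = 0.516) or with samples centred on DNA and non-LTR families (adjusted p = 0.119), and it was 0.059 when they were centred on all families. For Doc the difference was 0.35 ± 0.20 (limma, adjusted p = 0.201) and for Doc4 0.40 ± 0.23 (adjusted p = 0.197). For both it passed under each of the 3 other scalings, with the second change larger. BS (-0.39 ± 0.23), Helena (-0.40 ± 0.43), jockey (-0.12 ± 0.17) and Doc2 (0.16 ± 0.22) did not pass, with limma adjusted p-values of 0.203 to 0.599. With samples centred on all families, Doc2 passed at 1.003 (limma, adjusted p = 0.00159) and jockey at 0.73 (adjusted p = 0.000569), and after equalising the TE sums they passed at 0.80 (adjusted p = 0.00331) and 0.53 (adjusted p = 0.012).

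The wider jockey superfamily was described by a list of 16 other families: jockey2, BS3, BS4, F, the G elements, and HeT-A, TART-A, TART-B and TAHRE, which maintain fly telomeres. In the first comparison 5 of 16 were higher (F, G4, G6, HeT-A and jockey2) and 3 of 16 lower (G7, TART-A and TART-B), with a median log2 change of 0.36 and a range of -1.74 to 1.48. In the second comparison 2 of 16 were higher, F by 0.81 ± 0.14 (SE; limma, adjusted p = 2.61e-07) and G, and 0 of 16 lower, with a median of 0.12. Relative to Doc, F did not pass in either comparison. Its changes were -0.15 ± 0.12 in the first (SE; limma, adjusted p = 0.328) and -0.21 ± 0.15 in the second (adjusted p = 0.2).

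The families with the pattern most like each of the 5 that passed were found by Pearson's r of log2 values over the 8 samples, centred within each table, among 105 families. Such values share the libraries and the direction of each comparison and are descriptions only. For Doc they were the ERV springer (0.99), F (0.97) and gypsy12 (0.96). For Doc3 they were the ERVs gypsy5, rover and ZAM (0.96 each), which were higher in the first comparison and lower in the second. ZAM had log2 changes of 5.36 and -0.46, against 0.62 and -0.16 for Doc3. For Doc4 they were 297 (0.95), Rt1a (0.95) and gypsy3 (0.92), for jockey roo, Stalker4 and Ivk (0.98 each), and for Helena Hobo (0.90), jockey2 (0.90) and Rt1b (0.88). Within the 7, Doc and jockey had an r of 0.91, Doc and Doc3 one of 0.32, and Doc and BS one of 0.14.

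The families differ in what the reference genome holds of them. Annotated insertions were counted in BDGP6.54, which may not be the build behind the study's list of TE copies. The copies in the fly lines sequenced here may differ and were not examined. Doc had 81 insertions with a median length of 4708 bp, and 47 of them had a length within 10% of that of the longest copy that overlaps no other TE (4733 bp). Jockey had 96 insertions with a median of 522 bp, 13 of them within 10% of its longest such copy of 5023 bp, and BS had 43 with a median of 145 bp, 6 of them within 10% of 5142 bp. Doc3 had 23 insertions, Helena 9, Doc4 8 and Doc2 7. In each of these 4 families 1 insertion, the longest such copy itself, was within this range. Of the 7 families, Doc had the highest level per kb and was also the one with the most near full-length copies.

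The insertions lay mostly in introns or outside genes. Of Doc, 2 touched exons, 45 were in introns and 34 outside genes, and 19 of those in genes had the strand of the gene. Of jockey the numbers were 3, 39 and 54, and of BS 2, 21 and 20. The longest Doc copy without overlap was at 3L:25447167-25451899 on the plus strand, in an intron of lovit. Doc copies touched exons of Bmcp (3L:11723163-11727872) and CHKov1 (3R:25324412-25328927). The flam locus on the X chromosome is the piRNA source of follicle cells. In it, 1 Doc insertion was at X:21672490-21676734 in an intron of lncRNA:flam, where it overlapped another TE. That Doc copy was on the plus strand, the same strand as lncRNA:flam. Also there, 1 Helena insertion was at X:21655544-21656067 in an exon, on the minus strand, which is not that of lncRNA:flam. Whether piRNAs against either family come from these copies was not tested.

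Other long copies without overlap were a BS copy in an intron of CG43060 (3R:8043844-8048985, minus strand) and a Doc3 copy in an intron of Pzl (3R:3000109-3004669, minus strand). The longest jockey copy without overlap was outside genes (X:22565059-22570081, plus strand). A read from an insertion within a transcribed gene would be counted to the family, and the part of such reads in the levels was not tested.

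**Figure D5:**
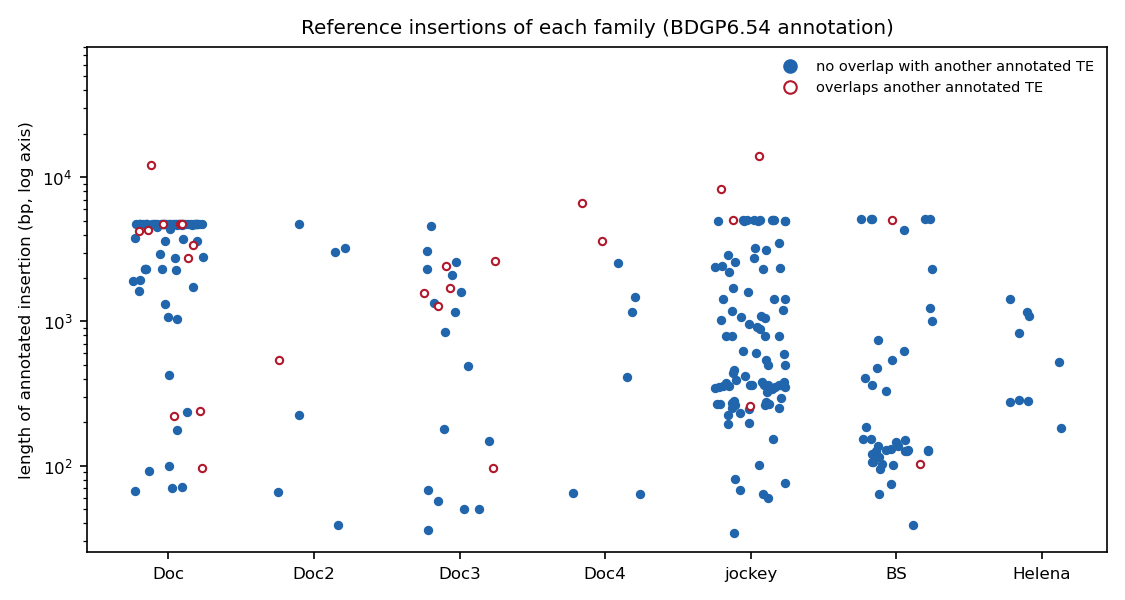
Length of each annotated insertion (bp, log axis) of the 7 families in the BDGP6.54 annotation, with filled points for insertions free of other annotated TEs and open points for those that overlap one. Doc points crowd at the full length, with 47 of 81 within 10% of 4733 bp, while most of jockey and BS are short, with medians of 522 and 145 bp.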

How the data were processed

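Ovary RNA of 8 samples in 4 groups of 2 replicates was analysed. According to the study's methods, the authors trimmed reads with UrQt, aligned them to genes with TopHat2, counted genes with eXpress and TE families with TEcount of TEtools, and took size factors from DESeq2 (version 1.10) over genes and TEs. How reads that match several families were assigned is not stated, so related families may share reads. The deposited signal is the normalised count per TE family, in 2 tables that were normalised separately. All 8 value columns were used and 0 were left out. In each sample 100% of values were whole multiples of a step within 1e-06 reads, which gave the size factors and reads. These reads were used for depth, for Poisson intervals and for the precision weights of 1 alternative.

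Each comparison was fitted within its table with limma 3.58.1 in R 4.3.3 (mean-variance trend) on log2(normalised count + 1), which understates the change of low families, over all families above 0 in a sample, with Benjamini-Hochberg adjustment and a threshold of 0.05. Ratios divide the group means without a pseudocount, and 2-fold was their threshold. The prior degrees of freedom were 6.11 in the first comparison. Replicates are labelled biological, with 2 per group. Changes relative to Doc and between the comparisons were added after the data were seen. Every family by the naming rule is given, with the 3 most alike families for those that passed. The families and lists were chosen with earlier results of these data known. Insertions were read from the Ensembl release 115 annotation of BDGP6.54; dm3 is the build in the submitters' notes. The names of the double-knockdown libraries carry a higher number in the place of the temperature, and the labelled temperature was used. Sequences were not used here.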

Additional observations from a re-analysis of the deposited data

How the results depend on the processing

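Of 203 log2 changes of the 7 families under the alternatives to the test settings, 151 kept their direction and side of the threshold, 15 lost and 8 gained a call, and 29 reversed. Most reversals came from 3 other scalings. In the first comparison, with the TE sum made equal, samples centred on DNA and non-LTR families, and samples centred on all families, in that order, log2 changes were -1.09, -0.44 and -0.94 for BS, -0.69, -0.038 and -0.54 for Doc, -1.14, -0.49 and -0.98 for Doc2, -0.74, -0.089 and -0.59 for Doc3, -1.23, -0.58 and -1.07 for Doc4, and -0.95, -0.29 and -0.79 for jockey. Helena was at -0.53 with the sum made equal and -0.38 centred on all families. In the second, the reversed values were -0.33 and -0.0051 for Doc2, -0.32 and -0.0094 for Helena, and -0.42 and -0.089 for jockey in the first and second of these scalings, -0.065 for jockey centred on all families, and -0.18 for Doc4 with the sum made equal. The median of all families then moved from 0.47 to -0.88, -0.23 and -0.73 in the first comparison, and from 0.24 to -0.48, -0.15 and -0.13 in the second. Under each of these scalings, 0 of the 7 families were higher in the first comparison and 1 of 7 in the second. Lower were 6, 2 and 6 of 7 in the first, and 3, 2 and 2 of 7 in the second. Of all 109 families in the first comparison, 22, 28 and 22 were higher and 78, 35 and 71 lower. Of all 110 in the second, 12, 14 and 16 were higher and 65, 17 and 19 lower. The summed ratios were 0.608, 0.962 and 0.674 for the 7 families and 0.525, 0.829 and 0.583 without Doc in the first comparison. The second comparison gave 1.06, 1.33 and 1.35 for the 7 families and 0.688, 0.863 and 0.877 without Doc. In the same order, the second log2 change less the first was 0.25 and 0.20 for BS and Helena with the sum made equal, 0.45 and 0.39 centred on all families, 0.059 for Doc3 centred on all families, and 0.53, 0.20 and 0.73 for jockey. Precision weights gave 4 of the 7 families higher in the second comparison, and 37 of all 110. With 1 sample left out, where the lone sample is assumed to vary like the other group, 1 to 4 families were higher in the first comparison and 1 in each fit of the second. The BS change in the second ran from -0.32 to 0.072, the change relative to Doc in the first from -0.13 to 0.028 for Doc3 and from -0.052 to 0.30 for Helena, and the difference for Doc2 from -0.012 to 0.34.

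The samples share only a number across groups: deviations of same-numbered samples had a correlation of -0.13 in the first and 0.25 in the second comparison over 105 families. With the replicate block, 3 of 7 families were higher in the first comparison (Helena lost, limma adjusted p = 0.0534) and 2 of 7 in the second, with 53 and 33 of all families higher. The crossed replicate block gave 3 of 7 families higher in the first comparison and 64 of all. Pairs of 2 replicates give few degrees of freedom, and the depth limits Helena most, with 10 to 28 reads per sample. The tests of read counts with negative binomial models were not run. At most 10 values in a sample lay at or below 20 reads, too few for the deposited values to be classed as counts. Precision weights on the recovered reads were used instead. The comparison of shared sequence words was not run, because no genome sequence was used. No group is large enough for a test of a sample that stands apart.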
